A study of Mus musculus with 24 samples.

Results

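The peroxisomal fatty acid oxidation enzymes described here are 9 genes chosen by name, namely Acaa1a, Acaa1b, Ehhadh, Hsd17b4, Crot, Cat, Decr2, Pex11a and Hsdl2. They were found by symbol among the 25746 genes listed, and all 9 were among the 12330 genes abundant enough to be tested. Their mRNA was measured by RNA sequencing of whole liver from 24 mice on the C57/BL6N strain background, killed at 12 weeks of age after a short fast. The 4 groups held 6 mice each, 1 library per mouse: male wildtype (mWT), male knockout (mKO), female wildtype (fWT) and female knockout (fKO). The knockout mice lack the whole major urinary protein (Mup) gene cluster in every tissue after CRISPR/Cas9 deletion, and the line descends from a single male founder, so the KO allele was examined in 1 line only. All groups were kept on standard chow with free access. The comparisons ask how these genes differ between KO and WT within each sex, and between the sexes within each genotype.

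Peroxisomes shorten fatty acids that mitochondria handle poorly, such as very long-chain, branched-chain and dicarboxylic acids and bile acid precursors. Each round of chain shortening begins with an oxidation that produces hydrogen peroxide. The bifunctional enzymes Ehhadh (L-specific) and Hsd17b4 (D-specific) hydrate and dehydrogenate the product, and the 3-ketoacyl-CoA thiolases Acaa1a and Acaa1b release acetyl-CoA. Decr2 is the peroxisomal 2,4-dienoyl-CoA reductase needed for unsaturated chains. Crot, carnitine O-octanoyltransferase, converts the shortened chains to carnitine esters that can leave for the mitochondria. Cat, catalase, breaks down the hydrogen peroxide, Pex11a takes part in the elongation and division of the organelle, and Hsdl2 is a hydroxysteroid dehydrogenase-like protein of peroxisomes. In rodent liver many of these genes are known targets of the nuclear receptor PPARalpha, whose ligands cause peroxisomes to multiply.

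Promoter sequences were compared for the members, and 4 are shown. Acaa1a and Acaa1b are close copies with unlike levels, Ehhadh is the enzyme whose level varied most closely with that of Acaa1b, and Cat had the highest level. The window was the 250 bases before the RefSeq transcription start, on the GRCm38.p6 build and 5′ to 3′ on the strand of the gene. Each run is the longest piece of the window that holds no annotated untranslated exon, all 250 bases for Acaa1b and Ehhadh, 243 for Cat and 134 for Acaa1a. Capitals mark CCAAT (or ATTGG, its reverse complement), a common promoter element, and AGGTCA (or TGACCT), the core letters bound by nuclear receptors.
Acaa1a (chr9:119341160-119341293, plus strand): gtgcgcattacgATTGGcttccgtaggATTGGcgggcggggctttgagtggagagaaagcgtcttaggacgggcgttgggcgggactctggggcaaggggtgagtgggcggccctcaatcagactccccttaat
Acaa1b (chr9:119157094-119157343, minus strand): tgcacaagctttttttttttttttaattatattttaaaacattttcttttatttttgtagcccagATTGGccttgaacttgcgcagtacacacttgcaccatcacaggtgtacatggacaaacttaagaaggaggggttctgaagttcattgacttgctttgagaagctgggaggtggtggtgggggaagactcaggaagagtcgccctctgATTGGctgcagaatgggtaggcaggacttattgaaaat
Ehhadh (chr16:21787835-21788084, minus strand): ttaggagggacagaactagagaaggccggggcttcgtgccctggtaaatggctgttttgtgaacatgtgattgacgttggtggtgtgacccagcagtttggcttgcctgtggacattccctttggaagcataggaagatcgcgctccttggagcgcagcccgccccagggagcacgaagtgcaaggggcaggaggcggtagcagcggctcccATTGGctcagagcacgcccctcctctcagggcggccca
Cat (chr2:103485161-103485403, minus strand): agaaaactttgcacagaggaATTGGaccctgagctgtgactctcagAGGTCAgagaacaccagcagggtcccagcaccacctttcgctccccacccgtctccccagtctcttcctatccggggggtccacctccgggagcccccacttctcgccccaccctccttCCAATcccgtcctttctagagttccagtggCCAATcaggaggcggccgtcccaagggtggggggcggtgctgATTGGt
Both thiolase promoters lie on chromosome 9, yet the whole windows differ in base composition, with 53.6% G and C in Acaa1a and 41.6% in Acaa1b. The 2 windows are not alike in position. That of Acaa1a begins at 119341044, inside the annotated gene (start 119339676), and 113 of its bases are untranslated exon. That of Acaa1b lies wholly before its gene. The Ehhadh, Cat and Crot windows hold 60.4%, 62.0% and 69.6% G and C, against a median of 52.4% over 32851 promoters. CCAAT was found on either strand in 5 of the 8 windows searched (Acaa1a, Acaa1b, Ehhadh, Cat and Crot), and in 33.8% of all promoters of the same length. Cat had 4 such matches, Acaa1a 3 (of which 2 are in the piece shown), Acaa1b 2, and Ehhadh and Crot 1 each. The Crot match lies in annotated untranslated exon, which makes up 178 of the 250 bases of that window. AGGTCA was found in Cat only, 204 bases before the start, and in 14.0% of all promoters. The longer direct repeat, AGGNCA followed by any base and by AGGNCA again (N is any base, and it can overlap AGGTCA), was in none of the 8 windows and in 0.338% of all promoters. The window of Hsd17b4 was not searched.

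Sequencing depth ranged from 15361901 to 26261394 reads counted in genes per library. The counts summed over 22 Mup genes were 272548 to 741314 in mWT and 70768 to 110248 in fWT mice, against 0 to 10 in mKO and 0 to 11 in fKO mice, as the labelled genotypes imply. Levels are given as normalised counts in CPM, counts scaled to a common library size. Markers of hepatocytes summed to 101149 to 156763 CPM over all libraries. Fat cell markers and pancreas markers each summed to less than 1 CPM in every library. Each of the 9 genes had at least 1065 counts in every library, so counting error was small beside the differences between mice. In whole tissue, fewer cells of a type and less RNA per cell cannot be told apart.

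All 9 genes are protein-coding, and their positions are given on GRCm38 as annotated in GENCODE M21. Acaa1a (ENSMUSG00000036138, chr9:119339676-119350299, plus strand) and Acaa1b (ENSMUSG00000010651, chr9:119148023-119157093, minus strand) are separated by 182582 bp. Of all 100-base stretches in the annotated transcripts, the length of 1 read, 19.3% in Acaa1b and 7.21% in Acaa1a occur in both genes, so reads from these stretches cannot be assigned to either with certainty. No such stretch of the other 7 members occurs in a transcript of another gene in the same direction. Reverse complements were not searched. Crot (ENSMUSG00000003623) lies at chr5:8966033-8997324, Cat (ENSMUSG00000027187) at chr2:103453849-103485160, Ehhadh (ENSMUSG00000022853) at chr16:21761287-21787807, and Hsd17b4 (ENSMUSG00000024507) at chr18:50128201-50196269. Decr2 (ENSMUSG00000036775) lies at chr17:26081208-26090337 and Pex11a (ENSMUSG00000030545) at chr7:79735957-79743131. Hsdl2 (ENSMUSG00000028383, chr4:59581563-59618689) is on the chromosome that carries the Mup cluster and ends 338114 bp before the start of the nearest Mup gene. Linkage of Hsdl2 to the deleted segment and the absence of Mup cannot be told apart in a single line. Exons of Acaa1a and Acaa1b overlap Myd88 and Dlec1 on the opposite strand by 223 and 224 bp, and neither neighbour exceeded 301 counts in a library. A Crot exon overlaps Gm37153 on the opposite strand by 166 bp, and Gm37153 had 0 counts in every library.

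Cat was by far the most abundant of the 9 when levels were put on a per-length scale (CPM per kb of exon). In mWT mice its level was 1197 ± 46.4 CPM per kb (SD, n = 6), followed by Acaa1b at 272 ± 57.6, Hsd17b4 at 133 ± 10.8, Ehhadh at 112 ± 18.4, Crot at 96.9 ± 26.0 and Decr2 at 91.5 ± 7.16. Pex11a at 35.0 ± 7.23, Hsdl2 at 26.7 ± 3.12 and Acaa1a at 21.6 ± 2.06 formed the low end. The ranges of Hsd17b4, Ehhadh and Crot overlapped between neighbours in this order, as did those of Crot and Decr2. The same held for Pex11a, Hsdl2 and Acaa1a. Exon length was taken over all annotated transcripts of a gene, and the order depends on it. In plain CPM the lowest mean was that of Hsdl2 in mWT and mKO, Pex11a in fWT and Acaa1a in fKO mice. Per kb, Acaa1a had the lowest mean in all 4 groups. Crot lay below both bifunctional enzymes in mWT and fWT mice and above both in mKO and fKO mice, at 160 ± 35.3 and 135 ± 48.0 CPM per kb, with overlapping ranges. Summed over the 9 genes, the level was 4936 to 6049 CPM in mWT and 6186 to 6901 CPM in mKO mice. The corresponding sums were 4253 to 4738 CPM in fWT and 4494 to 5062 CPM in fKO mice, and Cat alone made up 51.3 to 57.0% of the sum on average in each group.

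**Figure D1:**
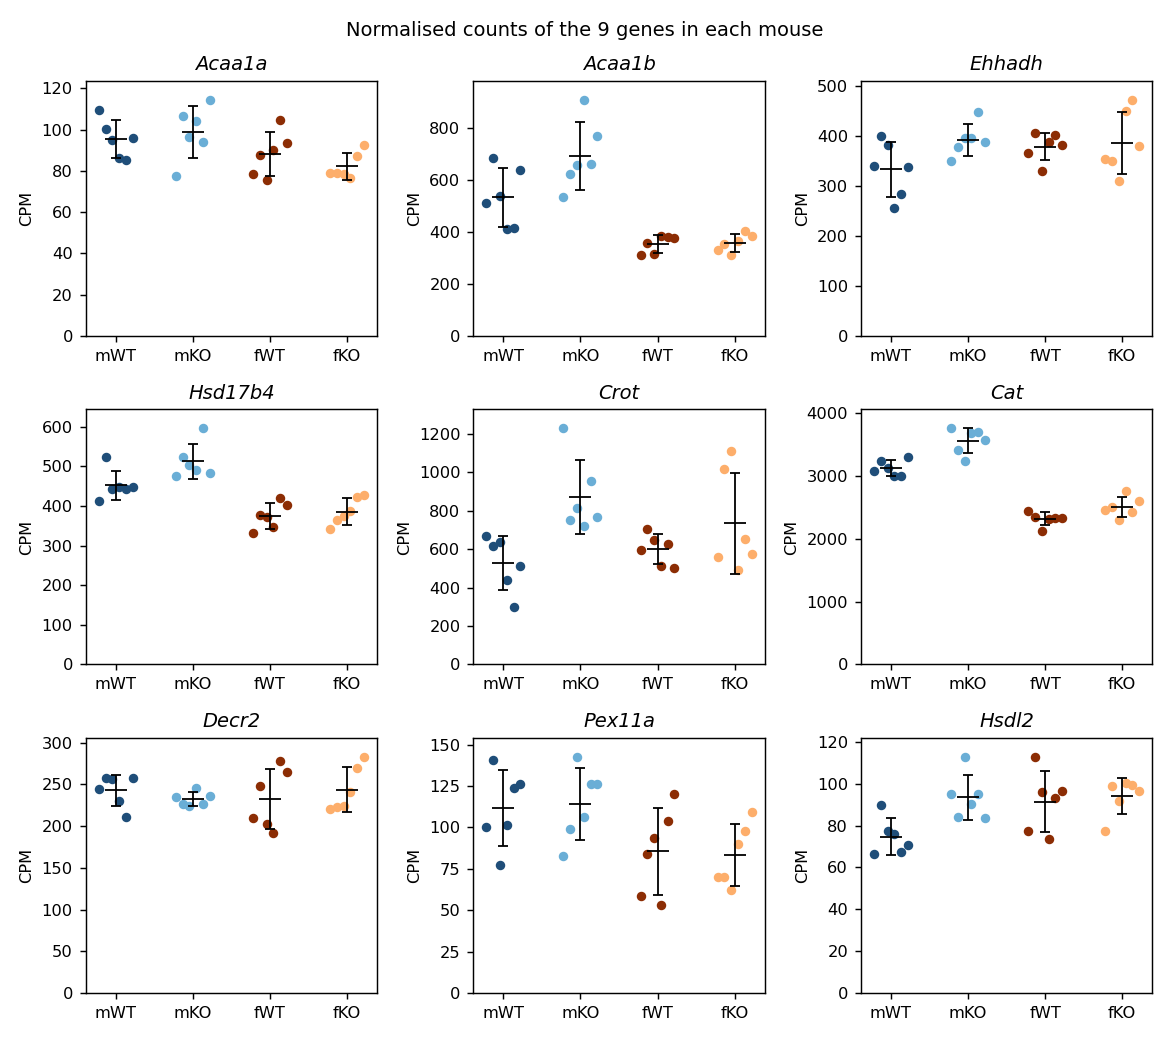
Normalised counts (CPM, linear axis from 0) of the 9 genes, 1 point per mouse, in mWT, mKO, fWT and fKO mice, with the mean and SD of each group of 6 as black bars. Crot separates mKO from mWT mice, Acaa1b and Cat separate males from females in both genotypes, and fKO mice 2 and 3 lie far above the other fKO mice for Crot.

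In males, 4 of the 9 genes were higher in mKO compared to mWT mice at an unadjusted p below 0.01, the cut-off used by the study. These were Crot, Acaa1b, Hsdl2 and Cat, and none was lower. Of all 12330 genes, 3.52% passed this cut-off in either direction and 1.80% were higher. None of the 9 passed an adjusted p of 0.05 (Benjamini-Hochberg, edgeR's quasi-likelihood test), which 0.211% of all genes did. With DESeq2, 4 members again passed the unadjusted cut-off, beside 4.25% of all genes, and 2 passed the adjusted one, beside 1.15%. Over the 9 the log2 fold change had a median of 0.19, beside -0.0022 over all genes tested, and 8 of 9 were above 0. Members of a group named with earlier results of these data in view do not form independent evidence of a direction.

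The largest change was that of Crot, the carnitine octanoyltransferase. Its level was lowest 298, median 564 and highest 670 CPM in mWT mice, against 719, 792 and 1229 CPM in mKO mice. Every mKO mouse lay above every mWT mouse, which was so for 0.584% of all genes. The mKO level was 1.65-fold higher (log2 fold change 0.72, SE 0.20, edgeR p = 0.0017, adjusted p = 0.156), and the exact two-sided permutation test over mice gave p = 0.0022, the smallest it can give with 6 mice against 6.

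Of the thiolases, Acaa1b ranged from 411 through a median of 524 to 687 CPM in mWT mice and from 534 through 660 to 908 CPM in mKO mice. The groups overlapped, with 2 mKO mice above the highest mWT mouse and all 6 above the mWT median. The log2 fold change was 0.38 (SE 0.12, edgeR p = 0.0048, adjusted p = 0.217), and the exact permutation test gave p = 0.0541. Acaa1a did not follow, at 95.4 ± 9.08 CPM in mWT and 98.8 ± 12.7 CPM in mKO mice (SD, n = 6 each). Its log2 fold change was 0.05 (SE 0.09, adjusted p = 0.911). Consequently the ratio of Acaa1b to Acaa1a counts was 5.58 ± 0.98 in mWT and 7.01 ± 0.95 in mKO mice (SD, n = 6 each, exact permutation p = 0.0195). With the counts of both genes summed, the log2 fold change was 0.33 (SE 0.11, adjusted p = 0.258) and passed the unadjusted cut-off.

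Catalase mRNA was lowest 3006, median 3107 and highest 3301 CPM in mWT mice, and 3237, 3634 and 3760 CPM in mKO mice. Only the lowest mKO mouse fell within the mWT range. The difference was small in size, 1.14-fold, with a log2 fold change of 0.19 (SE 0.06, edgeR p = 0.0047, adjusted p = 0.217, exact permutation p = 0.0065). Hsdl2 was lowest 66.5, median 73.4 and highest 90.0 CPM in mWT mice, and 83.6, 92.6 and 113 CPM in mKO mice. Here 4 of 6 mKO mice exceeded the highest mWT mouse. The log2 fold change was 0.32 (SE 0.10, edgeR p = 0.0027, adjusted p = 0.187, exact permutation p = 0.0065).

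Both bifunctional enzymes were numerically higher in mKO mice without passing the cut-off. Ehhadh was 333 ± 54.7 CPM in mWT and 393 ± 32.1 CPM in mKO mice (SD, n = 6 each), with a log2 fold change of 0.24 (SE 0.10, adjusted p = 0.400, exact permutation p = 0.0411). Hsd17b4 was 453 ± 36.7 and 512 ± 44.2 CPM, with a log2 fold change of 0.18 (SE 0.08, adjusted p = 0.378, exact permutation p = 0.0238). All 6 mKO mice lay above the mWT median for either gene, although the ranges overlapped. Decr2, the dienoyl-CoA reductase, and the fission factor Pex11a differed by less than their standard errors, at -0.063 (SE 0.087) and 0.030 (SE 0.19) on the log2 scale.

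The number of members called in males depended on single mice. Leaving out 1 male at a time, between 2 and 6 members passed the cut-off, with 2 left without mWT mouse 4, mWT mouse 5 or mKO mouse 4, and 6 without mWT mouse 2. When only the 2 male groups entered the fit, Crot and Hsdl2 passed and Acaa1b and Cat did not (adjusted p = 0.316 and adjusted p = 0.263).

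**Figure D2:**
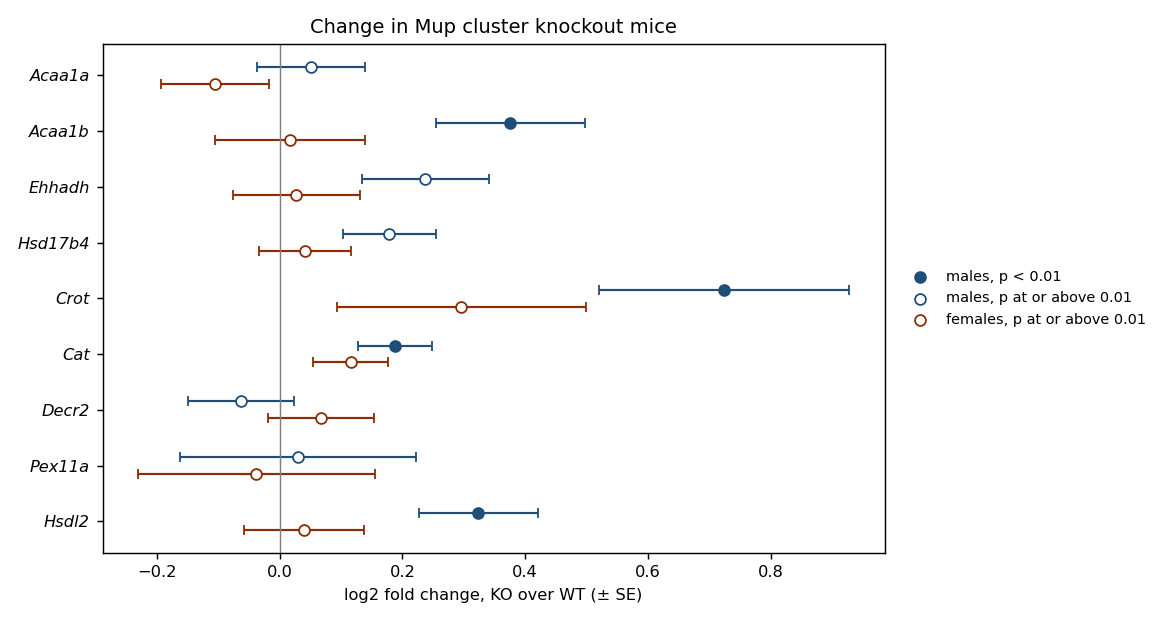
Log2 fold change of KO over WT (points, ± SE as bars) for the 9 genes in males (blue) and females (brown), filled where the unadjusted p was below 0.01. The filled points are Acaa1b, Crot, Cat and Hsdl2 in males, and no female point is filled.

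In females, none of the 9 genes passed the unadjusted cut-off in edgeR's test, DESeq2 passed none either, and none had an unadjusted p below 0.05. The background in this comparison was 0.868% of all genes at 0.01 and 4.87% at 0.05. With 9 genes, a count of 0 cannot be told from either share. The largest value was again that of Crot, at 504, 612 and 704 CPM (lowest, median and highest) in fWT mice and 493, 614 and 1112 CPM in fKO mice. The medians were almost equal, and the difference in means came from 2 fKO mice at 1017 and 1112 CPM, well above the other 4 at 493 to 656 CPM. The log2 fold change was 0.30 (SE 0.20, adjusted p = 0.929, exact permutation p = 0.331). The libraries of the 2 fKO mice with high Crot were the most alike of all pairs within a group. The chi-square per tested gene between their counts was 8.14, against at least 15.25 for every other such pair. The reason for this likeness was not tested. Cat was 2317 ± 104 CPM in fWT and 2511 ± 156 CPM in fKO mice (SD, n = 6 each), with 4 fKO mice above the highest fWT mouse. Its log2 fold change was 0.12 (SE 0.06, adjusted p = 0.929), and the exact permutation test gave p = 0.0325. Acaa1b, at 354 ± 33.5 and 358 ± 33.6 CPM, had a log2 fold change of 0.02 (SE 0.12). The 6 remaining members lay between -0.10 (Acaa1a) and 0.07 (Decr2), with a median of 0.04 over all 9.

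The difference between the sexes in the KO effect was tested as an interaction, and none of the 9 passed the cut-off, which 1.16% of all genes did. By DESeq2 none passed either. The unadjusted p was below 0.05 for 5.99% of all genes and for 2 members, Acaa1b (log2 difference 0.36, SE 0.17) and Hsdl2 (0.28, SE 0.14), both with an adjusted p of 0.829. For Crot the difference was 0.43 with an SE of 0.29 (adjusted p = 0.885). The comparisons share groups, so their values are not independent.

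The level of Crot was set beside that of Per2, a repressor of the circadian clock that oscillates strongly in liver, because 2 core clock genes were lower in mKO mice at the unadjusted cut-off. This was chosen after the values were seen. Per2 was 36.6 ± 9.91 CPM in mWT and 16.9 ± 4.78 CPM in mKO mice (SD, n = 6 each), with a log2 fold change of -1.11 (SE 0.35, adjusted p = 0.216). It passed the unadjusted cut-off, and only the mWT mouse with the least Per2, at 20.7 CPM, lay within the mKO range. The 2 fKO mice with high Crot, numbers 2 and 3, had Per2 at 10.6 and 9.14 CPM, whereas the other 4 fKO mice had 37.6 to 42.9 CPM. The same pair had the activator Arntl, whose rhythm is opposite to that of Per2, at 16.9 and 15.6 CPM, and the other 4 had 0.584 to 1.37 CPM. The mWT mouse with the least Crot, number 5, had Per2 at 46.1 CPM.

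Across the 24 mice, after the mean of each group was subtracted, Crot fell as Per2 rose, with Pearson's r = -0.75 (permutation p = 0.00045) and Spearman's rho = -0.77 (permutation p = 0.00024). Over the 9 members tested in this way the adjusted p for Crot was 0.00405, and no other member had an adjusted p below 0.05. Without the 2 mice farthest from the median of Per2, r was -0.63. Within the groups of 6, r was -0.67 in mWT, -0.29 in mKO, -0.86 in fWT and -0.95 in fKO mice. When the log2 level of Per2 entered the fit as a covariate, the log2 fold change of Crot in males was 0.27 in place of 0.72 and did not pass the cut-off. In that fit the share of all genes called in males was 0.933%, and 2 members passed the cut-off, Acaa1b at 0.45 and Cat at 0.22, and Hsdl2 was at 0.31 without passing it. No member had an adjusted p below 0.05 there. Genotype and the level of Per2 cannot be fully told apart in males, since 5 of 6 mWT mice had more Per2 than every mKO mouse. The time of day at which each mouse was killed is not given in the sources used here, and the part of the clock in the Crot difference was not tested. With fKO mice 2 and 3 left out, the log2 fold change of Crot in females was -0.061 (adjusted p = 0.964) and the interaction, at 0.79, passed the unadjusted cut-off (adjusted p = 0.191), as 3.81% of all genes did in that fit.

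**Figure D3:**
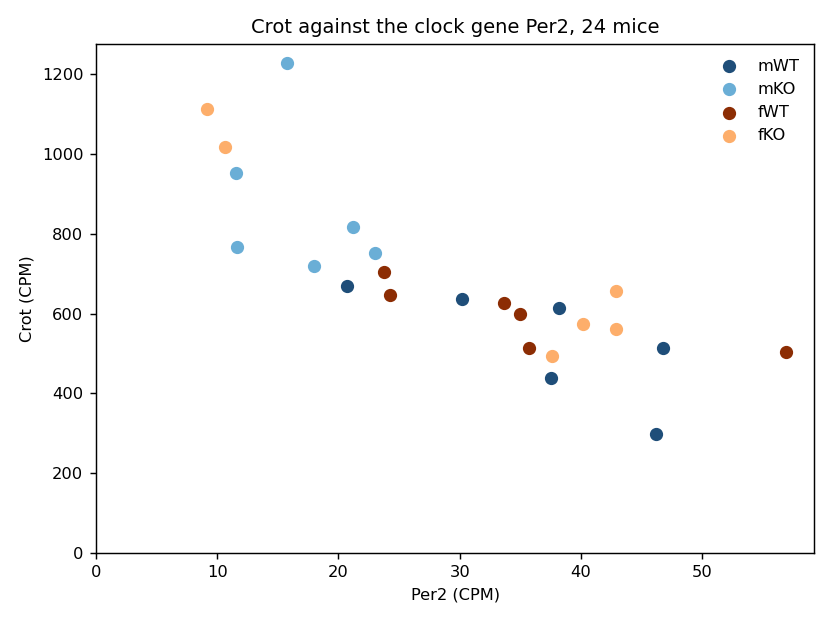
Level of Crot against that of Per2 (both CPM, linear axes from 0) in each of the 24 mice, coloured by group. The mKO mice and fKO mice 2 and 3 sit at low Per2 and high Crot, and the mWT mouse with the least Crot, at 298 CPM, sits at high Per2.

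Several members differed between the sexes. In WT mice 4 of the 9 genes passed the cut-off, Acaa1b, Cat and Hsd17b4 being higher and Hsdl2 lower in males, and all 4 had an adjusted p below 0.05. The background was 18.2% of all genes at the unadjusted cut-off and 17.3% at the adjusted one. In KO mice 4 of the 9 were higher in males, namely Acaa1b, Cat, Hsd17b4 and Acaa1a, all with an adjusted p below 0.05, against a background of 15.9% and 14.4%.

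Acaa1b was 1.51-fold higher in mWT than in fWT mice (log2 fold change 0.59, SE 0.12, adjusted p = 0.00118) and 1.93-fold higher in mKO than in fKO mice (0.95, SE 0.12, adjusted p = 3.29e-06). Its lowest male level, 411 CPM in mWT mice, exceeded the highest female level, 404 CPM in fKO mice. The ratio of Acaa1b to Acaa1a counts was 4.02 ± 0.22 in fWT and 4.37 ± 0.31 in fKO mice (SD, n = 6 each), below the male ratios in both genotypes (exact permutation p = 0.0022 in each). Acaa1a itself differed by 0.11 (SE 0.09, adjusted p = 0.426) in WT and by 0.27 (SE 0.09, adjusted p = 0.0404) in KO mice. The call in KO mice was lost in 7 of 12 fits that left out 1 mouse and, at 0.23, with fKO mice 2 and 3 left out (adjusted p = 0.146).

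Cat was 1.35-fold higher in males in WT (log2 fold change 0.43, SE 0.06, adjusted p = 9.05e-06) and 1.42-fold in KO mice (0.50, SE 0.06, adjusted p = 1.08e-06). The lowest mWT mouse at 3006 CPM exceeded the highest fWT mouse at 2439 CPM. Hsd17b4 was 0.27 higher on the log2 scale in WT (SE 0.08, adjusted p = 0.0129) and 0.41 higher in KO males (SE 0.08, adjusted p = 0.00034), and its levels were 332 to 420 CPM in fWT against 413 to 523 CPM in mWT mice. Male and female ranges did not overlap for Acaa1b and Cat in WT mice, nor for Acaa1b, Cat and Hsd17b4 in KO mice. Of all genes, 3.67% were higher in males without overlap in WT and 3.84% in KO mice.

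Hsdl2 showed the opposite sign. It was 73.4, 94.5 and 113 CPM in fWT mice (lowest, median and highest) against 66.5, 73.4 and 90.0 CPM in mWT mice. The log2 fold change was -0.29 (SE 0.10, adjusted p = 0.0386). In KO mice, at 77.4 to 100 CPM in females and 83.6 to 113 CPM in males, the difference was -0.0079 (SE 0.10, adjusted p = 0.970). The call in WT mice was lost in 7 of 12 fits that left out 1 mouse and when only the WT groups were fitted (adjusted p = 0.0622). Pex11a was numerically higher in males, by 0.38 (SE 0.19, adjusted p = 0.180) in WT and 0.45 (SE 0.19, adjusted p = 0.125) in KO mice. With Per2 as a covariate, Pex11a in KO mice was 0.61 and passed the cut-off (adjusted p = 0.0410). Ehhadh, Crot and Decr2 did not pass the cut-off in either genotype, with values between -0.18 and 0.25. With fKO mice 2 and 3 left out, Crot in KO mice was 0.60 higher in males instead of 0.25 and passed it (adjusted p = 0.0267).

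Markers of other liver cells also differed by sex. All 7 Kupffer cell markers were lower in WT males, 4 of them past the cut-off, and their sum was 80.5 to 162 CPM in mWT against 146 to 266 CPM in fWT mice. All 6 endothelial markers were lower in WT males, 3 past the cut-off, with sums of 124 to 155 and 141 to 189 CPM. Red blood cell markers summed to 149 to 214 CPM in mWT and 40.5 to 67.8 CPM in fWT mice, mainly through Alas2, an enzyme of heme synthesis in red cell precursors, at 131 ± 17.3 and 12.1 ± 2.91 CPM (SD, n = 6 each). In KO mice all 7 Kupffer cell and all 6 endothelial markers were also lower in males, with 0 and 1 past the cut-off. All 7 stellate cell markers were lower in KO males, 2 past the cut-off, and 6 of 7 in WT males, 1 past it. All 5 red blood cell markers tested were higher in males of both genotypes, 5 past the cut-off in KO and 1 in WT mice. Hepatocyte marker sums overlapped between the sexes. The part of these shifts in the sex differences above was not tested. Between mKO and mWT mice the summed level of every marker list overlapped.

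**Figure D4:**
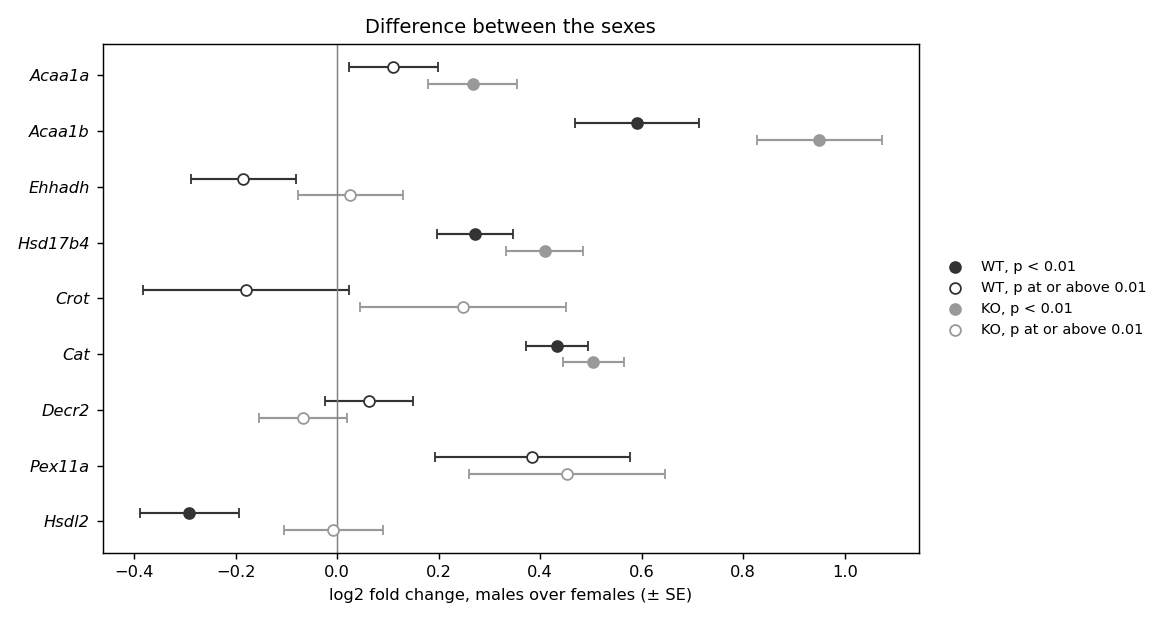
Log2 fold change of males over females (points, ± SE as bars) for the 9 genes in WT (dark) and KO mice (grey), filled where the unadjusted p was below 0.01. Acaa1b, Cat and Hsd17b4 are filled and to the right of 0 in both genotypes, Acaa1a in KO mice only, and Hsdl2 is filled to the left of 0 in WT mice only.

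Several members varied together from mouse to mouse, though not in the same way within every group. After group means were subtracted, 28 of the 36 pairs correlated positively over the 24 mice, with r between -0.34 and 0.70 and a median of 0.37. The adjusted permutation p was below 0.05 for 8 pairs, all positive. The closest pair was Hsd17b4 and Pex11a (r = 0.70, permutation p = 0.00064, rho = 0.73, permutation p = 0.00042, adjusted p = 0.0120). Without the 2 mice farthest from the median of Hsd17b4, r was 0.71. Acaa1b and Ehhadh followed (r = 0.68, permutation p = 0.00067, rho = 0.70, permutation p = 0.00047, adjusted p = 0.0120, and 0.70 without the 2 farthest mice). For Acaa1a and Acaa1b, which share part of their sequence, r was 0.66. Decr2, which was not called in either KO comparison, took part in 4 of the 8 pairs. Within mKO mice its r in these pairs was -0.54 with Hsd17b4, -0.26 with Ehhadh, 0.12 with Acaa1a and 0.60 with Acaa1b. In mWT, fWT and fKO mice the same 4 pairs were all positive, with r from 0.32 to 0.95. Decr2 also lay closest to the mean of all members, in which it is included (r = 0.85). Crot stood apart. None of its 8 pairs had an adjusted p below 0.05, its r ranged from -0.34 to 0.28, and its r with the member mean, in which it is included, was 0.13.

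**Figure D5:**
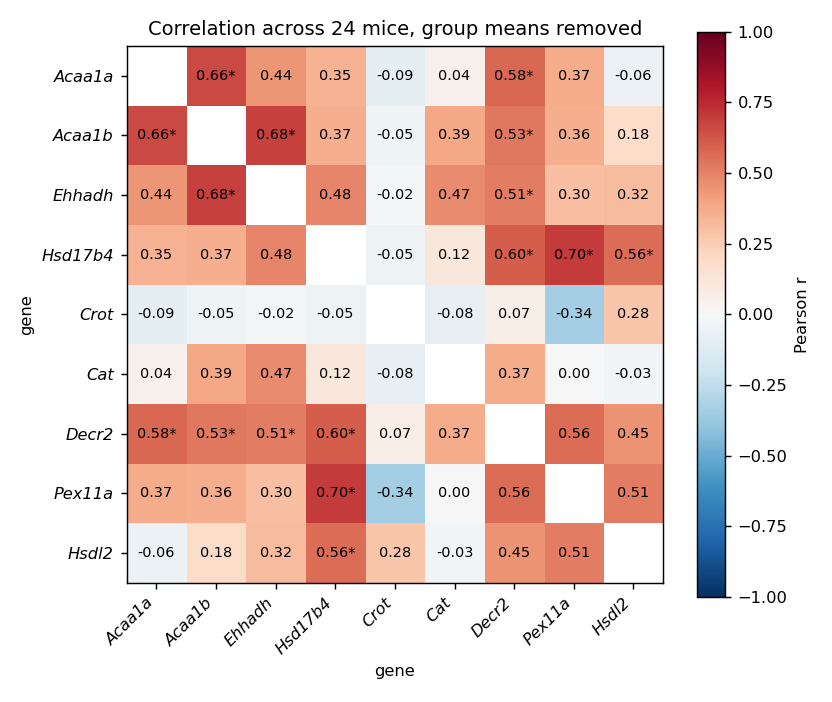
Pearson's r between each pair of the 9 genes over 24 mice after subtraction of group means (colour scale from -1 to 1), with an asterisk where the adjusted permutation p was below 0.05. The row of Crot has no asterisk and runs from -0.34 to 0.28, and Decr2 has 4 asterisks.

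Among all other genes tested, the 5 whose levels over the 24 libraries, with group means removed, most resembled the mean of the members included Fitm1 (r = 0.85), Pctp (0.77) and Acat1 (0.75). Fitm1, also on the list of PPARalpha targets described below, encodes a protein of lipid droplet formation. Pctp encodes a phosphatidylcholine carrier and Acat1 a mitochondrial acetyl-CoA acetyltransferase. This ranking is a description of these libraries.

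The remaining genes of the peroxisomal pathway were counted in the same way, beside the 3.52% of all genes called in males and 0.868% in females. Of 28 other genes of peroxisomal beta-oxidation tested, 1 was higher and 0 lower in mKO mice, and the median log2 value was 0.030. The gene was Acox2, an oxidase for bile acid precursors (0.31, SE 0.09, adjusted p = 0.152). Of 31 other peroxisomal enzymes, 2 were higher and 0 lower. These were Hacl1, the lyase of alpha-oxidation (0.49, SE 0.12, adjusted p = 0.106), and the membrane protein Pxmp4 (0.27, SE 0.07, adjusted p = 0.144). Hacl1 ranged from 196 to 299 CPM in mWT and from 301 to 368 CPM in mKO mice. The ranges lay close together without overlap, and 0.584% of all genes were higher in mKO mice without overlap. Of 18 genes for peroxins, the proteins that build the organelle, and for fission proteins, none was past the cut-off in males. The share called over these lists was thus near that of all genes. The lists held 0 called genes in females, too few genes to tell from the share of all genes.

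A further list held Ppara with its partner Rxra and coactivator Ppargc1a and, for the rest, targets of PPARalpha that are mostly outside the peroxisome (Aldh3a2 is also among the peroxisomal enzymes above). The list was chosen with earlier results of these data known. It includes Mogat1 and Apoa2, which the paper had already reported as upregulated in mKO mice, so its counts are not independent evidence. Over all genes tested, 1.80% were higher in mKO mice and 3.52% were called in either direction. Of the 28 tested on this list, 6 were higher, Mogat1 and Apoa2 among them, and 1 was lower. The median log2 value was 0.33. The largest changes were those of the microsomal fatty acid omega-hydroxylases Cyp4a14 (2.85, SE 0.78, adjusted p = 0.152) and Cyp4a10 (1.45, SE 0.42, adjusted p = 0.173), which supply dicarboxylic acids to peroxisomes. Cyp4a14 varied widely, from 7.06 to 185 CPM in mWT and from 56.1 to 686 CPM in mKO mice. The lipid synthesis gene Mogat1 (1.35, SE 0.34) and the fatty acid transporter Cd36 (0.68, SE 0.22) were also higher, while the desaturase Fads2 was lower (-0.41, SE 0.14, adjusted p = 0.280). Ppara itself did not pass the cut-off (-0.31, SE 0.15, adjusted p = 0.454). Of 18 genes of mitochondrial beta-oxidation, 2 were higher in mKO mice, among them Acadm (0.31, SE 0.11), and the median was 0.13. Of 15 core clock genes, 2 were lower, Per2 and Hlf (-0.35, SE 0.12, adjusted p = 0.266). In females none of these lists held a gene past the cut-off. The interaction passed it for Pex16 (0.42, SE 0.14) among the peroxins, for Cyp4a14, Cd36 and Apoa2 among the PPARalpha targets and for Acads (0.30, SE 0.10) among the mitochondrial genes, each with an adjusted p of 0.816.

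Between the sexes the rest of the pathway differed in both directions, and the share of all genes called was 18.2% in WT and 15.9% in KO mice. In WT mice 8 of the 28 other beta-oxidation genes were higher and 4 lower in males, and in KO mice 7 were higher and 5 lower. Scp2, sterol carrier protein with thiolase activity, was 2633 ± 216 CPM in mWT and 947 ± 136 CPM in fWT mice (SD, n = 6 each), a log2 difference of 1.48 (SE 0.09, adjusted p = 2.33e-12). The nudix hydrolase Nudt7 was 1.90 higher (SE 0.22, adjusted p = 1.27e-06). The acyl-CoA thioesterase Acot3 (-4.07, SE 0.99, adjusted p = 0.0067) and the transporter Abcd2 (-2.56, SE 0.27, adjusted p = 4.16e-07) were lower in males. The isomerase Eci3 was 1.33 to 6.18 CPM in fWT mice and at most 0.122 CPM in mWT mice. Of the 31 other peroxisomal enzymes 9 were higher and 2 lower in WT males, the largest being the glycolate oxidase Hao1 (0.98, SE 0.10, adjusted p = 9.28e-08). No peroxin passed the cut-off in WT mice, and 3 (Pex5, Pex14 and Pex16) were higher in KO males, by 0.31 to 0.34 on the log2 scale.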

How the data were processed

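Liver mRNA libraries (TruSeq Stranded mRNA) were sequenced as single-end reads in a single multiplex. According to the submitters' processing notes, fastp 0.20, STAR 2.7a, the GRCm38.p6 build, bcl2fastq 2.19 and edgeR 3.28.1 were used, and the authors counted reads per gene with featureCounts. The deposited values are raw counts per Ensembl gene, 1 file per mouse. The annotation release and the strand and multi-mapping settings are not given in the sources used here. The model behind the study's own edgeR tests is not given in the sources used here. Groups were taken from the labels. Depth is the total count per library.

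A gene was tested if 6 or more libraries reached 0.66 CPM. All 24 libraries entered 1 edgeR 4.0.16 quasi-likelihood fit (TMM scaling, robust dispersions) with a term per group, and contrasts gave log2 fold changes and p-values. A gene was called at an unadjusted p below 0.01, the study's cut-off, and Benjamini-Hochberg adjusted p-values over all genes are given beside it. DESeq2 1.42.0 was an alternative. The script was tested on simulated data. CPM are TMM-scaled. Exact permutation tests were two-sided over mice. Correlations used log2 CPM minus group means with 100000 permutations within groups. Genes were named if members, or, per list and comparison, among the 4 largest changes past the cut-off, plus Ppara and the 5 genes most like the members. Some genes that this rule names are not reported here. Arntl and Scp2 were named after their values were seen. Same-numbered mice are different animals, and their deviations from group means correlated at -0.379 to 0.248, so the numbers do not pair them. The members and gene lists were chosen with earlier results of these data known. DNA methylation was not analysed here.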

Additional observations from a re-analysis of the deposited data

Results flagged for a closer look

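Of the 36 combinations of member and group, each with 6 mice, 3 held a mouse whose distance to its nearest neighbour exceeded Dixon's 95% critical value (0.625 of the range for 6 values). Chance flags about 1 in 20 such groups. For Hsd17b4, mWT mouse 2 was the highest at 523 CPM. For Cat, fWT mouse 3 was the lowest at 2124 CPM, and for Hsdl2, fKO mouse 1 was the lowest at 77.4 CPM. Leaving out mWT mouse 2 raised the log2 fold change of Hsd17b4 in males from 0.18 to 0.22. No difference in the KO effect between the sexes passed the cut-off for a member.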

How the results depend on the processing

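The number of members called was within 1.5 times the reported one in all comparisons under DESeq2, DESeq2 size factors, no low-count filter, the edgeR default filter, non-robust dispersions, newer edgeR deviances and removal of the Mup genes. In males it was 4, but 2 when only the male groups were fitted and 2 with Per2 as a covariate. With fKO mice 2 and 3 left out, the interaction gained 1 member, Crot, while the share of all genes called rose from 1.16% to 3.81%. Between the sexes in KO mice the same fit gained Crot and lost Acaa1a. The alternatives with Per2 and with both fKO mice left out were chosen after seeing the data. Leaving out single mice gave 2 to 6 in males. With the mouse number as a replicate block, 3 members were called in males, where Cat was lost, and 5 between the sexes in KO mice, where Pex11a was gained, as it was with Per2 as a covariate (5 called). Small values changed sign. With both thiolases summed, the female KO value of Acaa1b was -0.0066. With Per2 as a covariate, Decr2 in males was 0.011 and Pex11a in females 0.035. With fKO mice 2 and 3 left out, Crot in females was -0.061, Pex11a was 0.11 in females and -0.081 in the interaction, and Ehhadh between the sexes in KO mice was -0.085. Leaving out single mice moved Pex11a from -0.057 to 0.11 in males, from -0.14 to 0.086 in females and from -0.058 to 0.17 in the interaction. In females it moved Acaa1b from -0.020 to 0.053, Ehhadh from -0.038 to 0.083 and Hsdl2 from -0.016 to 0.11. Between the sexes in KO mice it moved Ehhadh from -0.030 to 0.088 and Hsdl2 from -0.069 to 0.021. Depth does not limit these genes, whereas 6 mice per group leave SEs of 0.06 to 0.20 on the log2 scale between 2 groups. In the interaction the SEs were 0.09 to 0.29. The causes of the changes were not tested.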
